A study of Mus musculus with 12 samples.

Results

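The clustered histone genes were followed through 12 chromatin libraries of mouse forebrain at E12.5. They were taken as every promoter window with an H1, H2A, H2B, H3 or H4 symbol of these families. Such symbols were H1f, H2ac, H2bc, H3c or H4c with a number, H4f16, or an older Hist symbol. They also name 7 windows outside the clusters. The rule itself uses symbols and no measured value, but it was chosen with earlier results of these data known. It gave 73 of 55385 windows, of which 11 were H1, 20 H2A, 17 H2B, 12 H3 and 13 H4 windows. Each window spanned 2 kb centred on an annotated start site, which takes in most of a short histone gene and often the start site of its neighbour.

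The libraries came from untreated C57BL/6 embryos, wild type or EedcKO, which is named for Eed, the subunit of Polycomb repressive complex 2 (PRC2) that binds methylated histone H3. Cross-linked chromatin was immunoprecipitated for Eed (X-ChIP) and set beside an input library. CUT&Tag, in which an antibody-tethered transposase cuts nearby DNA, was used for H3K27me3 (the mark PRC2 deposits), for H3K27ac (a mark of active promoters), for RNA polymerase II, here RNA-Pol2, and for IgG as a control. Each target had a single library per genotype, so differences between genotypes stand without replicates and without p-values. The sources used here do not give the driver of the knockout, the deleted part of Eed, the number of embryos per library or their sex. In tissue, fewer cells of a type and less signal per cell cannot be told apart.

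Replication-dependent histone genes supply the proteins that package new DNA. They are transcribed mainly in S phase, mostly lack introns, and their mRNAs end in a stem-loop in place of a poly(A) tail. H2A, H2B, H3 and H4 form the nucleosome core, and linker H1 binds the DNA between cores. The genes lie in clusters, H2A and H2B often as divergent pairs that share 1 promoter, and are transcribed in a nuclear compartment called the histone locus body. At this stage the forebrain holds many dividing progenitors.

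By position the windows fell into 3 clusters and 7 windows elsewhere (coordinates are those of mm10). On chromosome 13, 24 windows lay in cluster A, which began at H2bc13 (chr13:21715143-21717142), and 32 in cluster B, which ended at H2ac1 (chr13:23933462-23935461). A smaller cluster on chromosome 3 held 10 windows. The others were H1f0, H1f7, H1f8, H1f10, H1f11-ps, Hist1h2al and H4f16. Because the genes are packed so closely, 54 windows overlapped another histone window, which left 42 groups without overlap, and 54 overlapped the window of a gene outside the family. Overlapping windows share reads and are not independent of each other.

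The promoter sequences were read from RefSeq for GRCm38.p6, which held a promoter for 63 of the 73 windows. In each one, 250 bases before the start and 50 after it were searched on both strands for short elements known from histone promoters. CCAAT, the letters bound by NF-Y, were present in all 17 H2A, 15 H2B and 10 H3 promoters, in 6 of 9 H1 promoters and in 3 of 12 H4 promoters, against 37.4% of all 32851 promoters in the table. The octamer ATTTGCAT, the letters bound by Oct-1, was present in 6 of 17 H2A and 6 of 15 H2B promoters, in no promoter of another type, and in 1.74% of all promoters. GGTCCG, known from the H4 promoter element that Hinfp binds, was present in 11 of 12 H4 promoters, in 1 H1, 1 H2B and 1 H3 promoter, and in 8.25% of all promoters. AAACACA, known from H1 promoters, was present in 4 of 9 H1 promoters, 2 of 17 H2A and 2 of 15 H2B promoters, and in 7.18% of all. TATAAA was present in 3 of 9 H1, 11 of 17 H2A, 7 of 15 H2B, 4 of 10 H3 and 8 of 12 H4 promoters, against 13.6% of all. A divergent pair is counted under both of its genes, so the H2A and H2B counts share sequence. A match describes letters, not binding.

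To show these elements, the 150 bases before the RefSeq start of 5 members follow, 5′ to 3′ on the gene's own strand, with each match in capitals. H2ac6 (chr13:23683960-23684109, minus strand) is the H2A gene of a divergent pair with H2bc4 and holds the octamer on the reverse strand, 2 CCAAT matches and TATAAA. H3c13 (chr3:96268504-96268653, plus strand) holds 2 CCAAT matches, and H4f16 (chr6:136804432-136804581, minus strand) the H4 letters. H1f2 (chr13:23738657-23738806, plus strand) holds AAACACA and CCAAT. H1f0 (chr15:79028062-79028211, plus strand), a linker histone of non-dividing cells, held none of the elements in these bases.
H2ac6: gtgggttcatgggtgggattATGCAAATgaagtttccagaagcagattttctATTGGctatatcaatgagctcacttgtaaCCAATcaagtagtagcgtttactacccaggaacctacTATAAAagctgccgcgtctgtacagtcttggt
H3c13: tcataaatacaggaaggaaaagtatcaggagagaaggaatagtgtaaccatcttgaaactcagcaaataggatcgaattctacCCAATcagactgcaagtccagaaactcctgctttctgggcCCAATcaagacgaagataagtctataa
H4f16: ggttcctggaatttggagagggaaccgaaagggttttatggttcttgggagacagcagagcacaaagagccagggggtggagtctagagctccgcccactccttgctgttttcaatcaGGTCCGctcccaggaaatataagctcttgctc
H1f2: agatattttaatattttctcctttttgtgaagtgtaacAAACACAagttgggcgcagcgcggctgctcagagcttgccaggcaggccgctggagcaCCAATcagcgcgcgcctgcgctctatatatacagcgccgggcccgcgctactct
H1f0: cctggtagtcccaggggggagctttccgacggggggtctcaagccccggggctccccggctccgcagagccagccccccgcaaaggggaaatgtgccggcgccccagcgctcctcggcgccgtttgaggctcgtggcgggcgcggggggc

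Some members shared promoter sequence with another promoter, and some of their windows, though not all, held few reads. Whether shared sequence was the cause was not tested. In the middle of cluster A, Hist1h2bq, Hist1h2ao and Hist1h4m lie in mirror order to Hist1h4n, Hist1h2ap and Hist1h2br, from chr13:21809197-21811196 to chr13:21832743-21834742. Hist1h2bq and Hist1h2br had identical 300-base promoters, and those of Hist1h4m and Hist1h4n were 99% identical. The 150 bases before the start are shown for both pairs. A read that lies wholly in bases shared by both copies cannot be assigned to 1 of them. Hist1h2bq lies at chr13:21810200-21810349 on the minus strand and Hist1h2br at chr13:21833593-21833742 on the plus strand. Hist1h4m lies at chr13:21811596-21811745 on the plus strand and Hist1h4n at chr13:21832198-21832347 on the minus strand.
Hist1h2bq: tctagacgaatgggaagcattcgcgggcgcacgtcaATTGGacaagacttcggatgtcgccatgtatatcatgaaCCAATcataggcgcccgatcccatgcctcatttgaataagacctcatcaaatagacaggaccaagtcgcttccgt
Hist1h2br: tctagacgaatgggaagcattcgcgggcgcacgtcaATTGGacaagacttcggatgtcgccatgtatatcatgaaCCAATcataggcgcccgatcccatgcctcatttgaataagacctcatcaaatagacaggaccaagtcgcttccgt
Hist1h4m: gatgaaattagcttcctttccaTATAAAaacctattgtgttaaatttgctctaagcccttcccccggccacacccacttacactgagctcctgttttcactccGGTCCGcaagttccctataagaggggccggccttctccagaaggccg
Hist1h4n: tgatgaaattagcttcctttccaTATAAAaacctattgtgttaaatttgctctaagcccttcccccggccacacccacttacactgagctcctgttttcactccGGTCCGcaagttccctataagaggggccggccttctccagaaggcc

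The windows of Hist1h2bq, Hist1h2ao, Hist1h2ap and Hist1h2br together held 4 reads over all 12 libraries, with input at 0 in both genotypes. Hist1h4m held 0 to 14 reads per library and Hist1h4n 0 to 11. A count of 0 allows up to 3 counts, and here it says nothing of these genes, since input was at 0 too. Cut into 50-base words, 10 promoters had over 50% of their words also at another promoter, from 67.7% to 100%, and these included H3c14, H3c15, H2ac18 and H2ac19 of the chromosome 3 cluster. Their input counts summed over both genotypes ran from 0 to 23, with a median of 2.5. The other 53 promoters, with at most 11.6% of their words shared, had 18 to 59 input counts, with a median of 40. The sources used here do not say how the authors treated reads that fit several places.

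**Figure D1:**
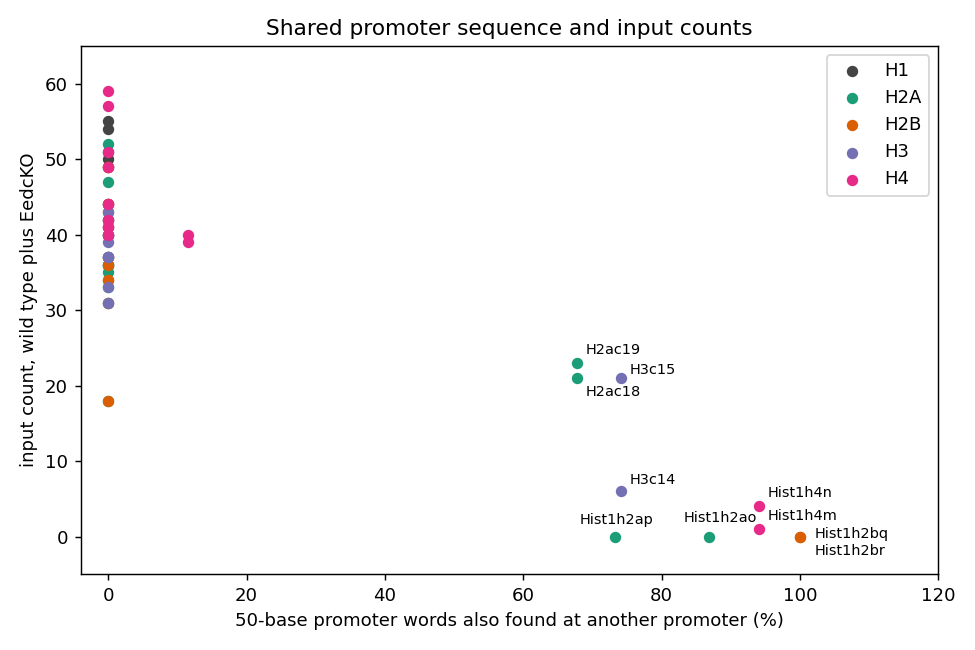
Percent of the 50-base words of each histone promoter that also occur at another promoter (x axis) against the input count of its window summed over both genotypes (y axis), 1 point per promoter, 63 in all, coloured by histone type. The 10 named promoters with over 50% of their words shared lie at 23 input counts or fewer.

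The deposited whole-number counts had totals from 948955 to 3842779 over all windows, and the median histone window held 9 to 61 counts per library. Single windows therefore carry wide counting intervals, and all intervals cover counting error only. The Eed window (chr7:89979983-89981982) held 121 Eed counts in wild type and 40 in EedcKO, with input at 27 and 19. A window at the start site does not show whether the gene was cut elsewhere. Sox2, a marker of neural progenitors, held 80 and 217 RNA-Pol2 counts in wild type and EedcKO. An EedcKO RNA-Pol2 summit lay in 3 of 5 neuron marker windows, and in 0 of 5 blood, 0 of 4 endothelium and 0 of 4 microglia marker windows. Of all windows, 19.7% held one, so 0 in so few windows does not show that a cell type was absent. At known Polycomb targets, the library labelled EedcKO H3K27ac held many counts, as the wild type H3K27me3 library did. At 4 Hox windows the wild type H3K27me3 library had a median of 1070.5 counts and the wild type H3K27ac library 18.5. The library labelled EedcKO H3K27ac had 1377 and the library labelled EedcKO H3K27me3 19.5. Whether the labels of these 2 EedcKO libraries were exchanged was not tested. Between genotypes, medians, counts and named windows of the 2 marks are given with these 2 libraries as labelled and exchanged. Summits and ratios over IgG are given as labelled.

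In wild type, the histone windows lay near the median of all windows for both histone marks. H3K27me3 ran from 0 to 62 counts (H4c9), with a median of 29 beside 26 over all windows. Inside the same clusters, 24 windows of other genes do not overlap a histone window, a set chosen after values were seen. Among them, the H3K27me3 counts of Prss16, Gm11290 and Pom121l2 were 944, 662 and 510. H3K27ac had a median of 31 counts at histone windows, beside 26 over all windows and 96 at 5682 other windows with a wild type H3K27ac summit. H1f0 was highest for H3K27ac, with 92 counts. RNA-Pol2 had a median of 35 counts at histone windows, beside 38 over all windows and 86 at the windows with an H3K27ac summit, and H1f10 was highest with 106. Against the median of all windows Eed was the exception, with a median of 27 counts beside 11, and 62 of 73 histone windows lay above that 11. At the windows with an H3K27ac summit the Eed median was 99, so the histone windows were low beside those for Eed too.

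**Figure D2:**
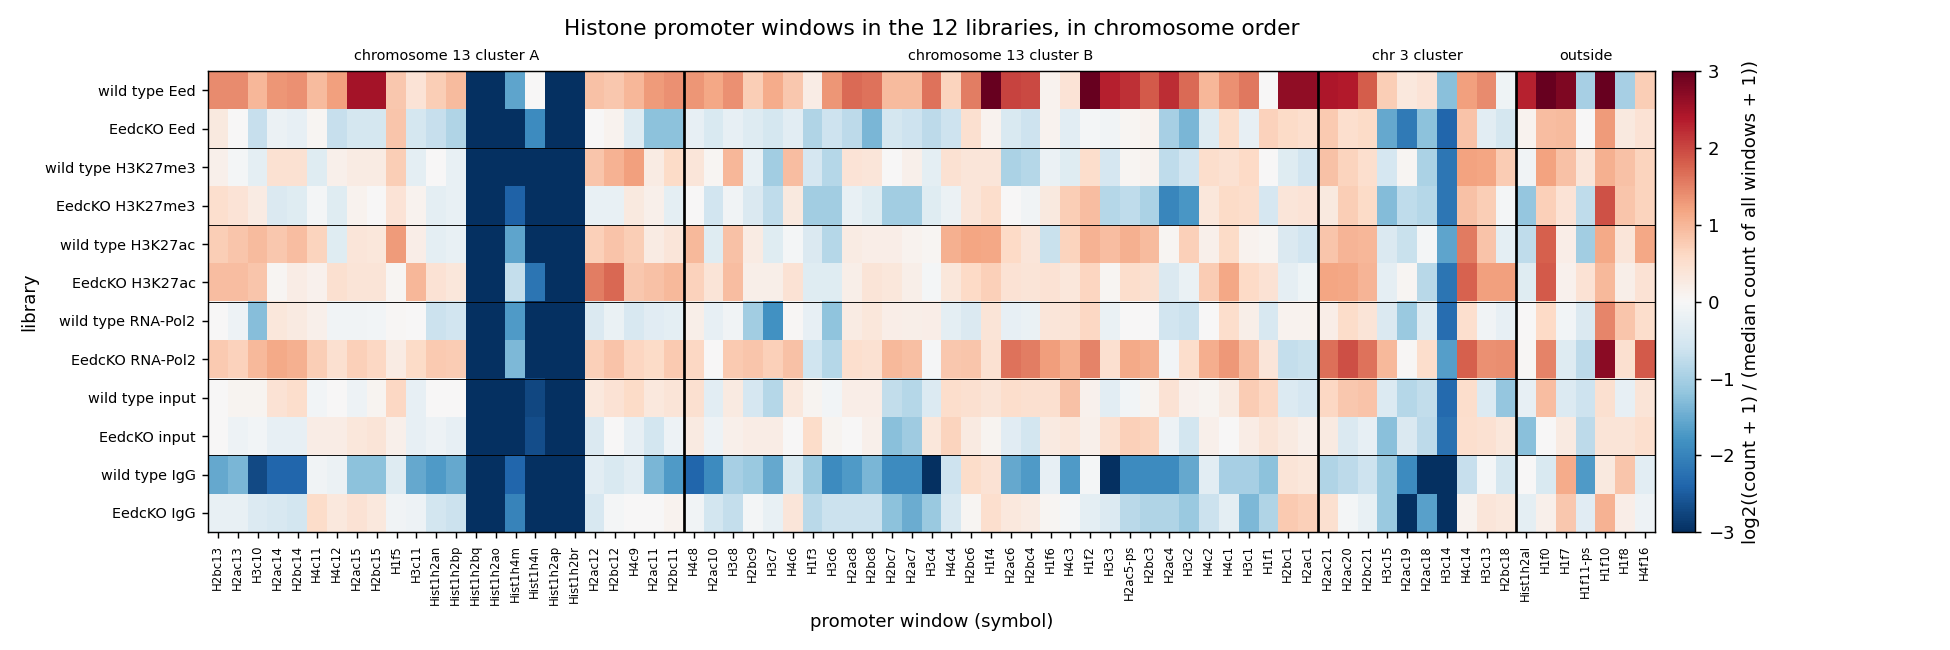
Counts of the 73 histone windows (x axis, by symbol, in chromosome order within each cluster, vertical lines between clusters) in the 12 libraries (y axis), as log2 of the count plus 1 over the library's median count of all windows plus 1, red above and blue below. The wild type Eed row is mostly red, the wild type IgG row mostly blue, and 4 windows of cluster A are near 0 counts in every library.

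Summits, the single positions the authors' caller gave per peak, had been called in each library by itself. A wild type Eed summit lay in 50 of 73 histone windows, against 29.1% of all windows. It lay in 16 of 20 H2A, 11 of 17 H2B, 8 of 12 H3, 9 of 13 H4 and 6 of 11 H1 windows, and in 88.8% of the windows with a wild type H3K27ac summit. No histone window held a wild type H3K27me3 summit, against 6.4% of all windows. H1f0 was the 1 window with a wild type H3K27ac summit (10.3% of all windows), and H1f10 the 1 with a wild type RNA-Pol2 summit (4.92%). In EedcKO, 4 windows held an Eed summit (9.4% of all windows), none held one of the library labelled H3K27me3 (1.18%) and 1, H1f0, held one of the library labelled H3K27ac (5.92%). An EedcKO RNA-Pol2 summit lay in 20 of 73 windows, against 19.7% of all windows. With a score of at least 10, 28 windows held a wild type Eed summit (25.6% of all windows) and 1 an EedcKO RNA-Pol2 summit (11% of all windows).

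Each target was then set against its control in the same genotype, as a log2 ratio centred on the median of all tested windows. Wild type Eed was at least 2-fold above input at 31 of 68 tested histone windows, against 28.4% of all windows. By type the count was 12 of 18 H2A, 7 of 15 H2B, 6 of 12 H3, 5 of 11 H1 and 1 of 12 H4 windows. EedcKO Eed was 2-fold above input at 1 of 68, against 5.16% of all windows. Wild type H3K27me3 was 2-fold above IgG at 45 of 66 windows (19.1% of all windows), H3K27ac at 49 of 68 (23.3%) and RNA-Pol2 at 34 of 67 (15.3%). These 3 shares rest on the wild type IgG library, which was low at histone windows, with a median of 9 counts beside 25 over all windows and 65 of 73 windows below that 25. In EedcKO, where IgG had a median of 22 beside 27, the counts were 3 of 68 for the library labelled H3K27me3 (7.78%), 21 of 67 for that labelled H3K27ac (14.5%) and 29 of 68 for RNA-Pol2 (23.4%). The part of IgG in the wild type shares was not tested.

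The genotypes were compared with a log2 ratio of EedcKO over wild type, taken from RPKM (counts scaled by window length and by the library's total promoter count) with 0.5 added. It was centred on the median of all windows with a mean of at least 1, and is called the relative log2 ratio. A relative log2 ratio of 1 or -1 was the size rule.

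Eed was lower in EedcKO at most histone windows. Of 68 tested windows, 60 had a ratio below 0 and 33 were at least 2-fold lower, against 30% of all windows. At least 2-fold higher were 3, against 22.6% of all windows. The median was -0.98 (order-statistic interval -1.18 to -0.79), beside -1.64 at the windows with a wild type H3K27ac summit and 0.18 at the other windows inside the clusters. Summed over the 42 groups without overlap, Eed counts were 1746 in wild type and 1033 in EedcKO, and input counts 884 and 789. The 7 windows outside the clusters held 603 and 276 of these Eed counts. Scaled by library totals alone, 11 windows were 2-fold lower and 8 higher, with a median of -0.096, since the median of all windows moved by 0.88.

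The linker H1 windows spread widest. H1f10, a linker histone made outside S phase, held 234 Eed counts in wild type and 62 in EedcKO, with input at 27 and 24 (relative log2 ratio -2.33, counting interval -2.78 to -1.94). H1f0 held 200 and 48, with input at 37 and 18 (-2.46, interval -2.98 to -2.03). These were the highest Eed counts of any histone window in wild type. H1f2 and H1f4, replication-dependent linker histones, held 94 and 24 (-2.35) and 95 and 27 (-2.20). The opposite direction was seen at H1f8, known from oocytes, with 5 and 31 counts (1.78), H1f11-ps with 5 and 25 (1.49) and H1f1 with 11 and 41 (1.28). Input was 12 and 10 at H1f11-ps, 30 and 24 at H1f1, and 40 at H1f8 over both genotypes. The centred log2 ratio of EedcKO Eed over input was 0.69 at H1f11-ps and 0.18 at H1f1, short of 2-fold. The median of all windows was 11 Eed counts in wild type and 25 in EedcKO. The median over the 11 H1 windows was -0.49.

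The core histone types differed less among their members. All 18 tested H2A windows were below 0, with a median of -1.32 (interval -1.80 to -0.89), and so were all 12 H3 windows, with a median of -1.10 (interval -1.73 to -0.94). Of 15 H2B windows 14 were below 0 (median -0.94, interval -1.89 to -0.46). H4 windows had a median of -0.55 (interval -0.90 to -0.10), with 2 of 12 at least 2-fold lower. H2ac4 held 55 Eed counts in wild type and 12 in EedcKO, with input at 26 and 16 (-2.52, interval -3.67 to -1.71). The divergent pair H2ac15 and H2bc15, whose windows overlap, held 67 and 17 at each gene (-2.34). H3c2, whose window overlaps that of H2ac4, held 38 and 9 (-2.37, interval -3.75 to -1.44), and H2bc8 36 and 9 (-2.30). Among H4 windows the largest change was at H4c12, with 27 and 15 (-1.25, interval -2.30 to -0.32). H4c1 had the most wild type Eed counts of the H4 genes, 30, and 37 in EedcKO.

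**Figure D3:**
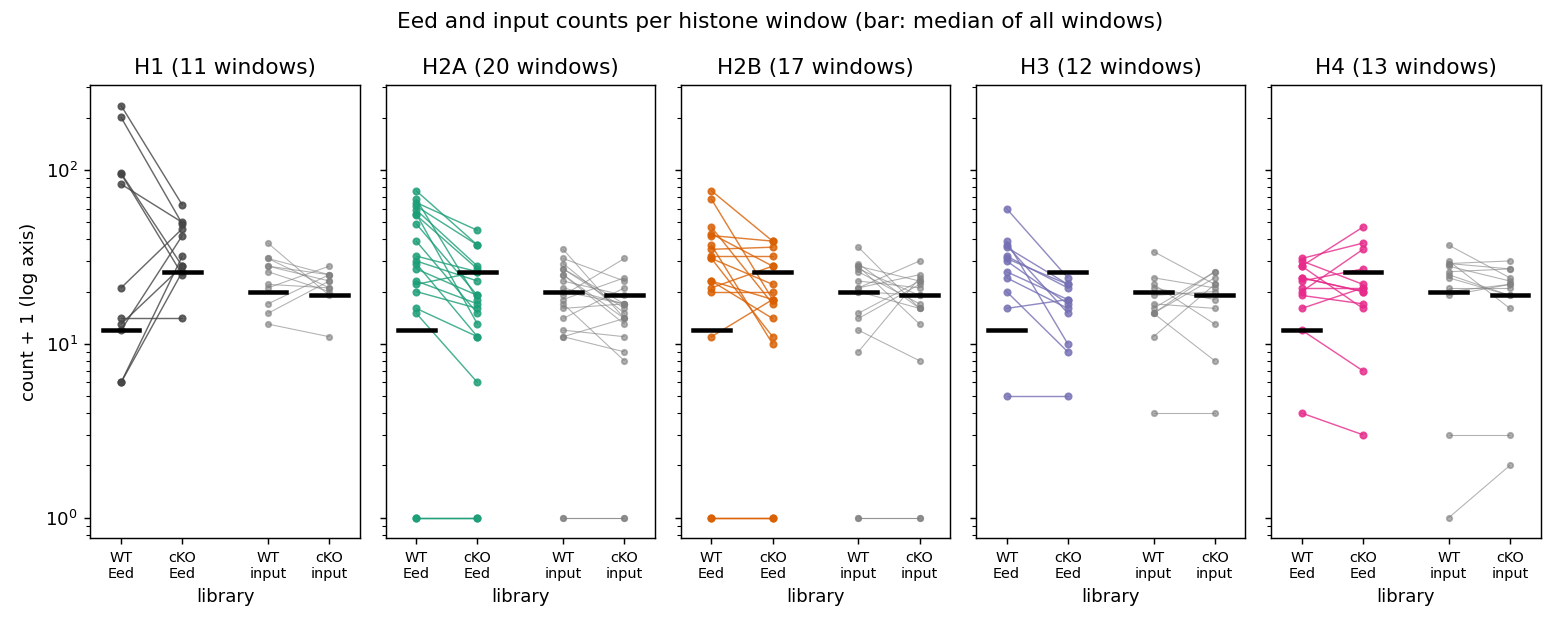
Eed counts (coloured) and input counts (grey) of each histone window in wild type (WT) and EedcKO (cKO), plus 1 on a log axis, 1 line per window, 1 panel per histone type, with black bars at the median of all windows. The 2 highest wild type Eed points are H1f10 (234) and H1f0 (200), and no H4 window exceeds 30 in wild type.

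Relative to all windows, the medians of H3K27me3 and H3K27ac at the histone windows were smaller than those of Eed and RNA-Pol2, and they moved with the scaling and with the control. In the library labelled EedcKO H3K27me3, 10 of 67 windows were at least 2-fold lower (13% of all windows) and 1 was higher (6.8%), with a median of -0.31 (interval -0.51 to -0.10). In the library labelled EedcKO H3K27ac, 1 of 68 was at least 2-fold lower (11.7% of all windows) and 3 were higher (18.2%), with a median of 0.07 (interval -0.07 to 0.18). With the 2 EedcKO libraries exchanged, the H3K27me3 median was 0.20, with 0 lower (4.49% of all windows) and 5 higher (2.55%). The H3K27ac median was then -0.39, with 10 lower (6.17%) and 1 higher (13.1%). Over IgG in each genotype, with the libraries as labelled, the H3K27me3 median was -1.03 with 34 of 66 lower, and the H3K27ac median -0.65 with 25 of 67 lower. Scaled by library totals alone, 0 windows were lower and 14 higher for H3K27me3, and 32 lower and 0 higher for H3K27ac. The median of all windows then lay at 0.85 for H3K27me3 and -1.04 for H3K27ac. Over IgG and by library totals alone, shares of all windows were not computed. These counts therefore do not show whether histone windows differ from the rest. The other windows inside the clusters, summed over 23 without overlap, held 2758 and 505 counts in the libraries labelled H3K27me3, and 561 and 3232 in those labelled H3K27ac. Prss16, Gm11290 and Pom121l2 held 2116 of the 2758 and 2677 of the 3232. The other 20 windows held 642 and 434 counts for H3K27me3, and 467 and 555 for H3K27ac.

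Single members of either mark stood on few counts. The overlapping pair H2bc12 and H2ac12 had 55 and 47 H3K27me3 counts in wild type and 22 each in the library labelled EedcKO H3K27me3 (-1.24 and -1.03). H3c8 had 53 and 24 (-1.07, interval -1.85 to -0.37). H4c3, with 20 and 44 (1.03, interval 0.40 to 2.03), was the 1 window at least 2-fold higher, and its IgG counts were 7 and 26. The library labelled EedcKO H3K27ac held 75 counts at H2bc12 (0.53 against wild type H3K27me3), 66 at H2ac12 (0.56), 43 at H3c8 (-0.18) and 28 at H4c3 (0.54), so none of these 4 passed the size rule with the libraries exchanged. For H3K27ac, H2bc18 had 21 counts in wild type and 53 in the library labelled EedcKO (1.44, interval 0.72 to 2.27). H1f11-ps had 12 and 30 (1.41) and H1f6 16 and 30 (1.04). H1f5 was the 1 window at least 2-fold lower, with 64 and 23 (-1.17, interval -2.10 to -0.63). The library labelled EedcKO H3K27me3 held 25 counts at H2bc18 (0.31 against wild type H3K27ac), 15 at H1f11-ps (0.35), 32 at H1f6 (0.999) and 35 at H1f5 (-0.76), and none of these 4 reached the size rule with the libraries exchanged.

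RNA-Pol2 was higher in EedcKO at most histone windows. The ratio was above 0 at 57 of 68 tested windows, with a median of 0.59 (interval 0.50 to 0.81). At least 2-fold higher were 14 windows, against 12.2% of all windows, and at least 2-fold lower was none, against 7.86%. The median was below that of the windows with a wild type H3K27ac summit (1.01) and above that of the other windows inside the clusters (-0.16, interval -0.52 to 0.39). Summed over the 42 groups without overlap, RNA-Pol2 counts were 1633 in wild type and 2857 in EedcKO (0.59, interval 0.50 to 0.68).

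IgG, which has no target, was higher there too. Its relative log2 ratio had a median of 0.73 (interval 0.41 to 1.03) over 67 histone windows, with 26 at least 2-fold higher (7.33% of all windows) and 1 lower (6.77%). Summed over the same 42 groups, IgG counts were 654 and 1055 (0.58, interval 0.44 to 0.72). Taken over IgG in each genotype, the RNA-Pol2 median turned to -0.20, and the RNA-Pol2 ratio exceeded the IgG ratio at 18 of 41 histone windows without overlap. The other windows inside the clusters held 645 and 630 IgG counts in sum. Input, by X-ChIP, had a median of -0.15 over 68 histone windows, with 4 at least 2-fold lower (2.5% of all windows) and 2 higher (3.34%), H3c7 and H2bc18. Scaled by library totals alone, 5 windows were 2-fold higher and 2 lower for RNA-Pol2, with a median of 0.18. The median of all windows then lay at -0.41.

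**Figure D4:**
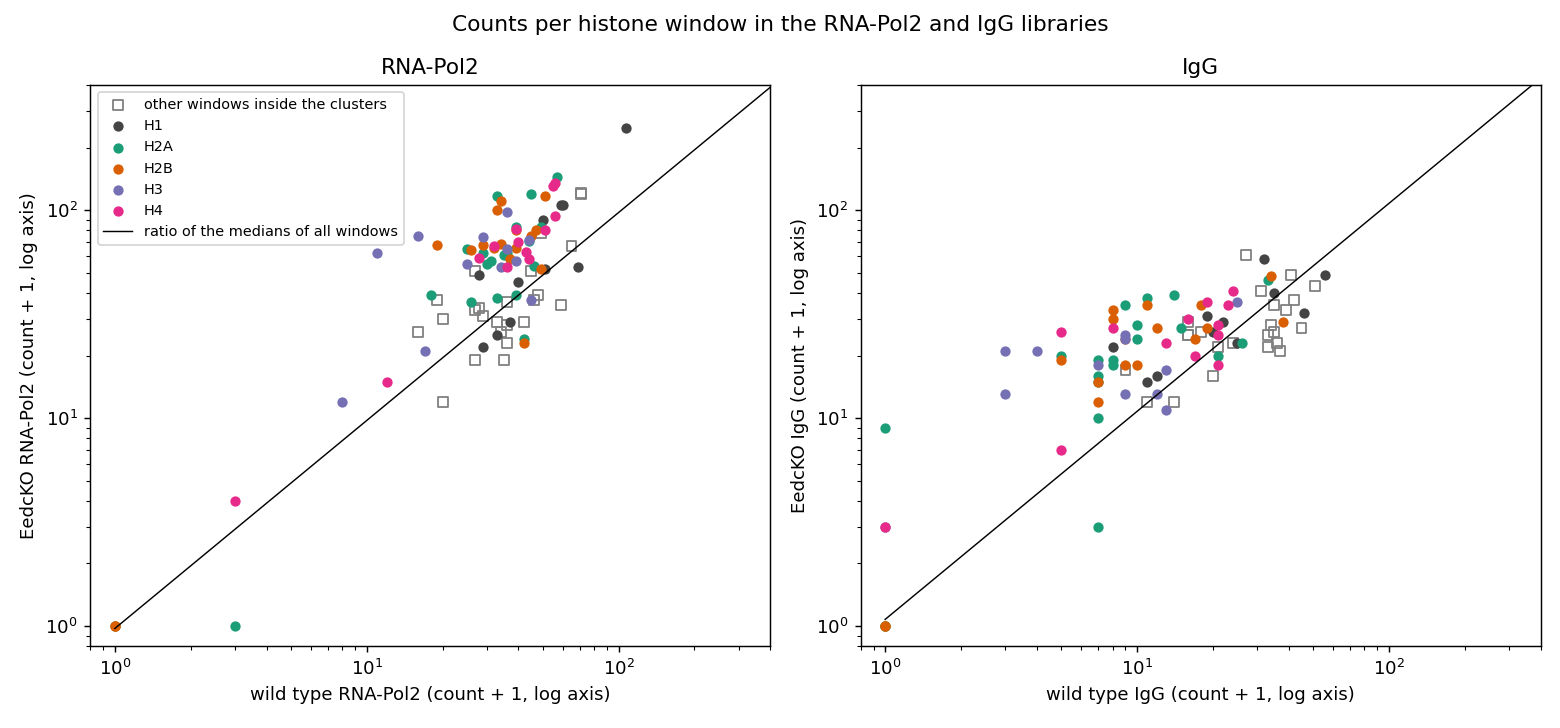
Counts plus 1 of each histone window in wild type (x axis) and EedcKO (y axis), both log axes, for RNA-Pol2 (left) and IgG (right), coloured by histone type, with the other windows inside the clusters as open squares and a line at the ratio of the medians of all windows. Most histone windows lie above the line in both panels, and the open squares lie around it.

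The RNA-Pol2 values differed by type and cluster. The median was 0.81 for 15 H2B, 0.62 for 18 H2A, 0.57 for 12 H3 and 0.56 for 12 H4 windows, and all 12 H4 windows were above 0. The 11 H1 windows had a median of -0.01, with 5 above 0. The IgG medians were 0.87 for H2B, 1.08 for H2A, 1.21 for H3, 0.57 for H4 and 0.29 for H1. In the chromosome 3 cluster all 10 windows were above 0 for RNA-Pol2, 6 of them at least 2-fold (12.2% of all windows). The median was 1.07 (interval 0.66 to 1.21), and the IgG median there was 0.73. These windows share reads and make only 5 groups without overlap. Summed over the 5, RNA-Pol2 counts were 190 and 473 (1.10, interval 0.85 to 1.35), and IgG counts 63 and 122 (0.84, interval 0.39 to 1.30). The chromosome 13 clusters had medians of 0.57 (A) and 0.53 (B). At least 2-fold higher were 3 of 19 and 4 of 32 windows, near the 12.2% of all windows.

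Among H2A and H2B genes, the overlapping windows of H2ac6 and H2bc4 (the pair of the octamer sequence above) had the largest H2A ratio. H2ac6 held 32 RNA-Pol2 counts in wild type and 116 in EedcKO (1.58, interval 1.06 to 2.25), and H2bc4 33 and 110 (1.46). IgG at H2ac6 was 8 and 34. H2bc9, whose window overlaps that of H3c7, held 18 and 67 (1.57, interval 0.91 to 2.52), with IgG at 11 and 26. Input at H2bc9 was 13 and 21 (0.74). H2ac20, in the chromosome 3 cluster, had the most wild type RNA-Pol2 counts of any H2A window, 56, and 143 in EedcKO (1.11), and H2bc18 there held 32 and 99 (1.36, interval 0.82 to 2.03), with IgG at 17 and 34 and input at 8 and 23 (1.5).

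Among H3 and H4 genes, H3c7 held 10 and 61 RNA-Pol2 counts (2.16, interval 1.41 to 3.52), the largest ratio of any histone window. IgG there was 8 and 23 and input 10 and 21 (1.08). Its window overlaps that of H2bc9 above, so the 2 share reads and are not separate changes. H3c10 held 15 and 74 (1.94, interval 1.27 to 2.99), with IgG at 3 and 20. At H3c15 the RNA-Pol2 counts were 28 and 73 (1.11) while IgG was 11 and 12, though 74.1% of its promoter words are shared with other promoters. H4f16, whose H4 letters are shown above, held 55 and 134 (1.04, interval 0.60 to 1.55), with IgG at 20 and 24. H4c14 held 54 and 130 (1.03, interval 0.58 to 1.53), with IgG at 15 and 29.

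H1f10 had the most RNA-Pol2 counts of all members in both genotypes, 106 and 247 (0.99, interval 0.67 to 1.34), with IgG at 31 and 57. H1f2 held 59 and 105 (0.60) with IgG at 24 and 22, and H1f0 58 and 105 (0.63) with IgG at 18 and 30. Of 5 members known from germ cells, 4 had an RNA-Pol2 ratio below 0. The testis pair H2ac1 and H2bc1, which overlap, held 41 RNA-Pol2 counts each in wild type and 23 and 22 in EedcKO (-0.92 and -0.97). IgG was 32 and 45 at H2ac1 and 33 and 47 at H2bc1. H1f7, known from spermatids, held 36 and 28 (interval -1.35 to 0.17), with IgG at 55 and 48. RNA-Pol2 at H2ac1, H2bc1 and H1f7 was thus near or below IgG, and its fall cannot be told from background. H1f8 held 68 and 52. H1f6, another testis linker histone, held 49 and 89 (0.63, interval 0.12 to 1.18), with IgG at 21 and 28. The median of these 5 germline windows was -0.56, with IgG at 0.29.

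**Figure D5:**
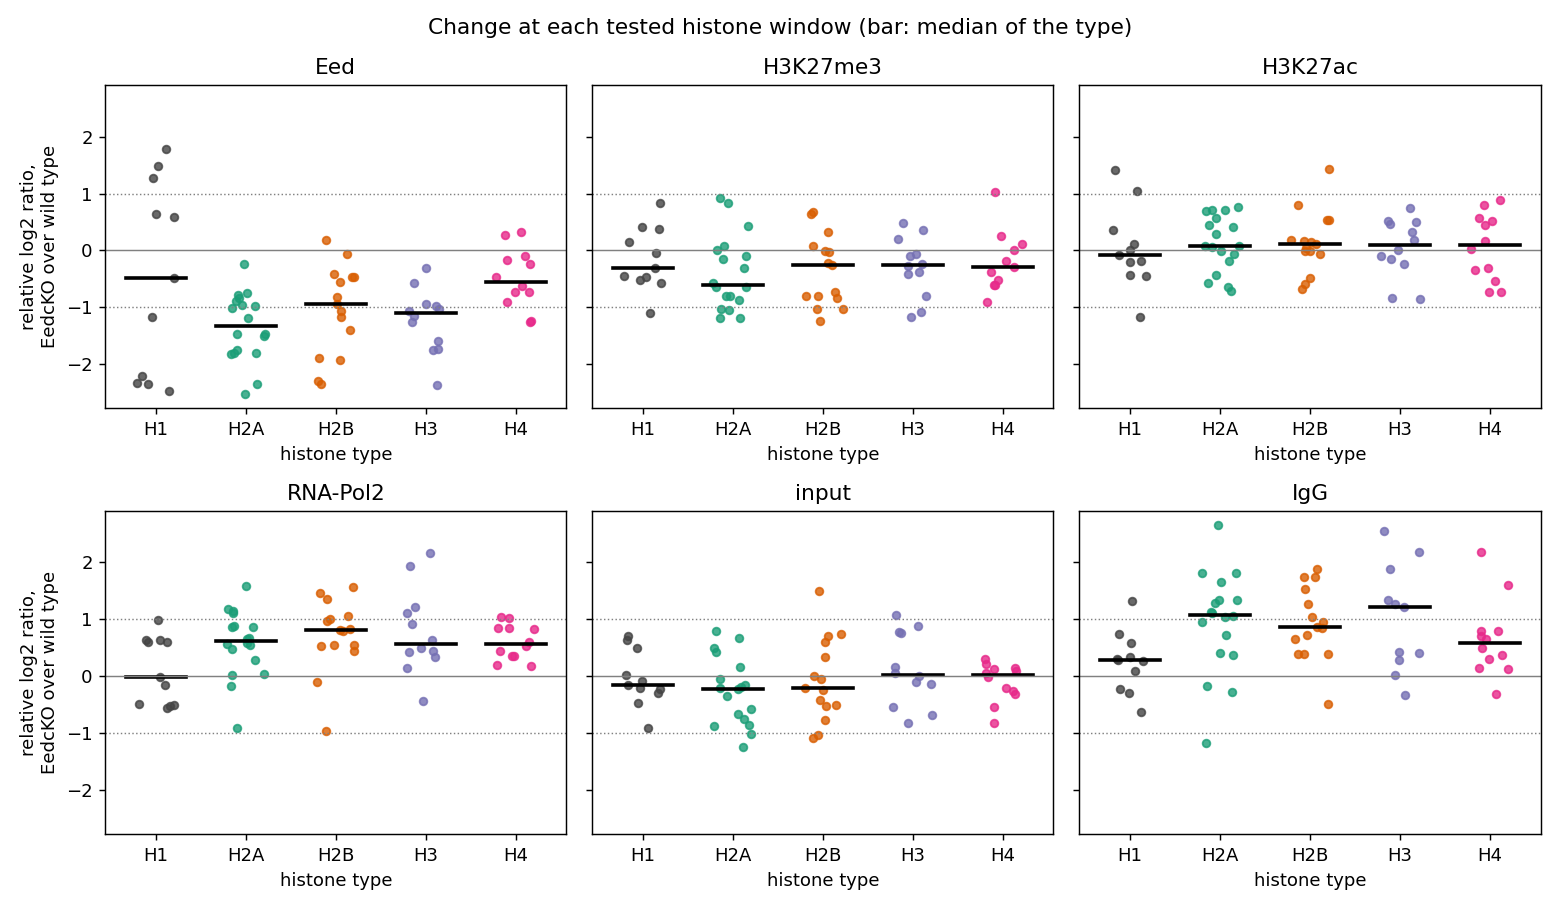
Relative log2 ratio of EedcKO over wild type (y axis) at each tested histone window, by histone type (x axis), in 1 panel for each of the 4 targets and for input and IgG, with a bar at the median and dotted lines at the size rule of 1 and -1. Eed points lie mostly below 0, RNA-Pol2 and IgG points mostly above 0, and H1 is spread widest for Eed.

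Genes that act on the histone genes were taken as lists, chosen with earlier results of these data known. Of 17 genes for histone gene transcription and 3′ end processing, all were above 0 for RNA-Pol2. At least 2-fold higher were 7, against 12.2% of all windows. Their RNA-Pol2 median was 0.96 and their IgG median 0.51. Npat, a coactivator of the histone locus body, held 117 and 368 RNA-Pol2 counts (1.42) with IgG at 29 and 37. Slbp, which binds the stem-loop of histone mRNAs, held 157 and 471 (1.35) with IgG at 24 and 57. Hinfp, which binds H4 promoters, held 90 and 178 (0.76). For Eed, 13 of the 17 were past 2-fold on the lower side (median -1.64), against 30% of all windows. The largest change was at Ccne2, a cyclin of S-phase entry, with 311 and 48 counts (-3.10). For RNA-Pol2 and Eed, the medians of the windows with a wild type H3K27ac summit, given above, were close to those of these 17 genes. The same shares over all windows hold for the 2 lists that follow. Of 9 replication-independent histone variants 1 was at least 2-fold higher for RNA-Pol2 (median 0.84), H3f3a, with 137 and 350 counts, and 8 were lower for Eed (median -1.97), with an IgG median of 1.04. Of 12 histone chaperones 5 were at least 2-fold higher for RNA-Pol2 (median 0.96) and 10 lower for Eed (median -1.77), with an IgG median of 0.80. A wild type Eed summit lay in 16 of 17, 7 of 9 and 11 of 12 of these windows, against 29.1% of all windows. A wild type H3K27ac summit, present at 1 histone window, lay in 8, 4 and 5 of them, against 10.3% of all windows.

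RNA-Pol2 values were also set against the promoter letters. The median relative log2 ratio was 0.60 at 47 tested members with CCAAT and 0.59 at 11 without it, and 0.55 at 32 with TATAAA and 0.63 at 26 without it. Among H2A and H2B members it was 0.68 at 12 with the octamer and 0.66 at 16 without it. At 8 members with AAACACA it was 0.13, beside 0.63 at 50 without it, and the IgG medians were 0.33 and 0.74. The 8 include the overlapping testis pair H2ac1 and H2bc1. They also include 4 H1 windows (H1f2, H1f4, H1f5 and H1f6), the type with the lowest RNA-Pol2 median above, so these letters and histone type cannot be told apart. These sets were compared after values were seen, and no test was made of them.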

How the data were processed

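Chromatin was measured in 12 libraries, 1 for each genotype and target, and grouped by the labels. The submitters' processing notes name ChIPseeker 1.22.1, Bowtie2 2.4.1, deepTools 3.4.0, MACS2 2.2.7.1 and the build mm10. The sources used here do not give filters on duplicates or on reads that map to several places. Values in the deposited promoter tables are whole-number counts per window, although the authors named the tables for RPKM, and counts were used where the plan had assumed RPKM. In the deposited summit lists each summit has a −log10 score, and whether it comes from p-values or q-values is not stated. Symbols were taken from a table free of symbols turned into dates.

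Counts were scaled by window length and total promoter count (948955 to 3842779), and a log2 ratio with 0.5 RPKM added was centred on the median of windows with a mean of at least 1 RPKM. Intervals of single windows and sums are 95% Clopper-Pearson intervals of the ratio of 2 counts, and those of medians are order-statistic intervals across windows, which share reads. A cluster ended at a gap of over 1 Mb. Named members are, per histone type and target, up to 4 with the largest ratio among those with at least 20 reads in 1 library, and those with the most and fewest wild type reads; members named for their copies, their promoter sequence, a shared window or the germline list, and those at 2-fold lines, were added after values were seen. The members and lists were chosen with earlier results of these data known. The ratio code was tested on simulated counts. Python 3.11.15, numpy 2.4.6, pandas 2.3.3, scipy 1.17.1, edlib 1.3.9.post1 (promoter identity) and matplotlib 3.10.9 were used. Alternatives were scaling without centring, other pseudocounts and filters, 1 window per overlapping group, copies left out, the EedcKO mark libraries exchanged and ratios over controls. One marker result is not reported here.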

Additional observations from a re-analysis of the deposited data

How the results depend on the processing

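With 1 library per group there was no replicate to leave out. No paired analysis was possible because no result comes from a test and each group holds 1 library. Of 126 recomputed medians and counts of histone windows between genotypes, 82 stayed within the main interval or within 1.5 times the main count, 40 moved further and 4 medians whose interval left out 0 changed sign; the cause was not tested. The H3K27ac median of 0.07, whose interval includes 0, fell below 0 under 6 of 11 alternatives, 2 of them a pseudocount of 2 RPKM (-0.012) and no filter (-0.014). Without centring, the Eed median was -0.096 with 11 lower and 8 higher, the H3K27me3 median turned to 0.54 with 0 lower and 14 higher, the H3K27ac median was -0.97 with 32 lower and 0 higher, and the RNA-Pol2 median 0.18 with 2 lower and 5 higher. With a pseudocount of 2 RPKM, the Eed median was -0.74, no window was past 2-fold in either direction for H3K27me3 (0 lower, 0 higher), and the RNA-Pol2 median was 0.48 with 8 higher. With no filter, 1 window was lower for RNA-Pol2. With 1 window per overlapping group, 19 were lower for Eed, 5 lower for H3K27me3 and 8 higher for RNA-Pol2, which fewer windows give by construction. With the EedcKO mark libraries exchanged, the H3K27me3 median turned to 0.20 with 0 lower and 5 higher, and the H3K27ac median was -0.39 with 10 lower and 1 higher. Over IgG in each genotype, the H3K27me3 median was -1.03 with 34 lower and 0 higher, the H3K27ac median -0.65 with 25 lower and 1 higher, and the RNA-Pol2 median turned to -0.20 with 16 lower and 5 higher. Chosen after the data were seen, the 3 clusters alone left 1 window higher for Eed. Centred on the other windows inside the clusters, also chosen then, the H3K27me3 median turned to 0.14 with 0 lower and 6 higher, the H3K27ac median was -0.45 with 11 lower and 0 higher, and 22 were higher for RNA-Pol2. Leaving out members with near-identical promoters, or the 10 with shared words, moved none of these results past those limits. Except with the libraries exchanged, shares of all windows were not computed anew for these alternatives. Depth limits single windows, most of which held under 100 counts in every library.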
